A study of Homo sapiens with 32 samples.

Results

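The miR-181 family was followed through 8 clones of 293T cells, an established human line derived from embryonic kidney. Its members are the 4 rows of the read-count table named mir-181a, mir-181b, mir-181c and mir-181d, out of 1513 miRNA rows, and they were taken by name. Of the clones, 4 were wild type (numbers 52, 55, 57 and 67) and 4 (numbers 30, 34, 42 and 43) had been prime edited at the DGCR8 locus, with the genotype label DGCR8 delta103-126Q, so that the reported contact site of ERH was missing. Every clone was transfected transiently with each of 4 vectors: control shRNA_1 and control shRNA_2, which target nothing, and shERH_1 and shERH_2, which target ERH. Cells were selected with puromycin at 2 µg/ml from 24 h, sorted on day 5 for the vector's fluorescent marker, and 400 ng of total RNA were mixed with 4 spike-in RNAs before a small RNA library was made from 100 ng. All cells therefore carried an shRNA vector and had passed selection and sorting. The 32 libraries form 8 groups of 4 clones, and each clone is 1 cell line. Libraries held between 1318923 and 6222790 miRNA counts. The table covers miRNAs, so ERH mRNA, the DGCR8 edit and mRNA markers of the cell line were not analysed here, and neither the knockdown nor the edit could be checked in it.

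Animal miRNAs are cut from hairpins in long primary transcripts by the Microprocessor, in which the nuclease DROSHA works with the RNA-binding protein DGCR8, and are trimmed in the cytoplasm by DICER1. Some hairpins that DROSHA cuts poorly on their own are known to be cut better when a neighbouring hairpin lies in the same transcript, and ERH, a small protein that binds the N-terminal part of DGCR8, has been reported to take part in this. The miR-181 family is best known from lymphocytes, where it tunes the sensitivity of T cells to antigen, and from the nervous system. Its members are made from 3 loci, each with 2 hairpins, which makes it a natural case for comparing neighbours.

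The mature 5p strands, which carry the family's function, are shown first because they define the family and the limits of counting it. The capitals mark the seed, bases 2 to 8, which pairs with target mRNAs.
hsa-miR-181a-5p: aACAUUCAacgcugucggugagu
hsa-miR-181b-5p: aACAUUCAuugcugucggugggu
hsa-miR-181c-5p: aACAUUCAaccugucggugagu
hsa-miR-181d-5p: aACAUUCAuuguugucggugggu
The 4 sequences (RefSeq, GRCh38.p14) share the seed and differ only behind it. Counted from the 5′ end, miR-181b-5p differs from miR-181a-5p at A9U, C10U and A21G, the base of miR-181a-5p being written before the position. The strands miR-181b-5p and miR-181d-5p differ by 1 base, C12U, and miR-181a-5p and miR-181c-5p also lie 1 edit apart, with lengths of 23 and 22 bases. Partners from 1 locus are less alike, at 3 edits for miR-181a-5p and miR-181b-5p and 5 edits for miR-181c-5p and miR-181d-5p. How reads that fit nearly equally well to 2 rows were assigned is not given in the sources used here. A small exchange of counts between mir-181b and mir-181d, or between mir-181a and mir-181c, therefore cannot be seen in the table. Averaged as log2 ratios, wild-type clones with control shRNAs had 1643 counts of mir-181a per 100 of mir-181c. They had 1119 counts of mir-181b per 100 of mir-181d. Such an exchange would weigh more on mir-181c and mir-181d, in the levels, ratios and likeness below. This seed is found in 5 mature miRNAs of RefSeq, and the fifth, miR-4262, had a total of 0 counts in the 32 libraries.

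The row mir-181a is fed by MIR181A1 (chromosome 1, 198859044 to 198859153, minus strand) and MIR181A2 (chromosome 9, 124692442 to 124692551, plus strand). The row mir-181b is fed by MIR181B1 (chromosome 1, 198858873 to 198858982, minus strand) and MIR181B2 (chromosome 9, 124693710 to 124693798, plus strand). MIR181C (chromosome 19, 13874699 to 13874808) and MIR181D (chromosome 19, 13874875 to 13875011) lie on the plus strand and have 1 locus each. In GENCODE release 29 (GRCh38) the chromosome 1 hairpins lie in an intron of the lincRNA MIR181A1HG. Those on chromosome 9 lie in an intron of MIR181A2HG, which runs antisense to NR6A1, and those on chromosome 19 in an intron of NANOS3, which encodes a germ cell RNA-binding protein. In all 3 loci the hairpin of mir-181a or mir-181c comes before that of mir-181b or mir-181d in the direction of transcription. The partners are 61 bases apart on chromosome 1, 1158 on chromosome 9 and 66 on chromosome 19. Each row holds both arms of its hairpins, so the chromosome 1 and chromosome 9 copies, whose 5p strands are identical, cannot be told apart.

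The hairpins of the 2 tightest loci are shown because the results below turn on upstream against downstream partners. The 5p strand is in capitals, and each sequence (RefSeq, GRCh38.p14) reads 5′ to 3′ along the transcript.
MIR181A1: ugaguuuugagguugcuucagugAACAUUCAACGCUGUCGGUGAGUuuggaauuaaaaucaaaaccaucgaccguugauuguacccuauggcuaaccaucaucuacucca
MIR181B1: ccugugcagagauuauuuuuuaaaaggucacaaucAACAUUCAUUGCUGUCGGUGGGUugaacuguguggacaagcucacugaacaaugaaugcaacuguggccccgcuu
MIR181C: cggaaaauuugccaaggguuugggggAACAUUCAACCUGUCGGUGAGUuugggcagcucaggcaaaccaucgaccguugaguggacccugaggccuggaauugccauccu
MIR181D: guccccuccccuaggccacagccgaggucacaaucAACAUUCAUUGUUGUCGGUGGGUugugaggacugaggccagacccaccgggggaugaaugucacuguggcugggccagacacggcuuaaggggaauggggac
Folded from the start of the 5p to the end of the 3p strand with RNAfold, these segments had minimum free energies per base of -0.35 kcal/mol for MIR181A1, -0.38 for MIR181B1, -0.40 for MIR181C and -0.43 for MIR181D. The median over 739 hairpins with both strands in the sequence table was -0.44, so all 4 were weaker than the median. Within each locus the downstream hairpin was the more stable of the pair by this measure. The GC content was 40.3% and 44.3% on chromosome 1 and 53.3% and 54.7% on chromosome 19, so partners were close to each other and the loci were not.

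Under control shRNAs the family was a minor part of the 293T miRNA repertoire, at 0.403% ± 0.074 (SD, n = 4) of all miRNA counts in wild-type clones and 0.384% ± 0.049 in deletion clones (n = 4). The row mir-181a supplied 69.1% ± 2.71 of the family's counts in wild-type clones, mir-181b 24.0% ± 2.51, mir-181c 4.61% ± 2.15 and mir-181d 2.22% ± 0.70 (SD, n = 4 each). Single libraries held between 3674 and 14958 counts of mir-181a, 473 and 3293 of mir-181b, 122 and 959 of mir-181c, and 64 and 384 of mir-181d, so counting error weighs most on mir-181d. Levels below are CPM, counts brought to a common library size with TMM scaling, from the 2 libraries of an arm summed per clone. In sorted populations, less of a miRNA per cell and fewer cells that hold it cannot be told apart.

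The knockdown of ERH was compared with the control shRNAs within the 8 clones, to ask which family members depend on ERH. Of the 4 members 3 were lower and 0 higher (edgeR quasi-likelihood test, called when the p adjusted over all rows by Benjamini-Hochberg was under 0.05), where 16.5% of the 667 rows tested were called lower and 20.1% higher. The downstream partners fell most, mir-181b to 0.397 and mir-181d to 0.469 of their control level. The upstream partner mir-181c fell to 0.636, and mir-181a, the most abundant member, did not pass the test.

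In wild-type clones 52, 55, 57 and 67 the row mir-181b was at 817, 1119.8, 1511 and 1607 CPM under control shRNAs and at 445, 489, 479 and 673 CPM under ERH shRNAs. In deletion clones 30, 34, 42 and 43 it was at 673, 717, 690.3 and 781 CPM under control and at 258, 255, 246 and 316 CPM under ERH shRNAs. Within each genotype the highest ERH value lay below the lowest control value, a gap whose share over all rows was not counted. The log2 fold change over all clones was -1.33 ± 0.11 (SE, edgeR adjusted p = 5.48e-09), and mir-181b was lower in 8 of 8 clones, as were 9.6% of the 667 rows. Only 2.10% of the rows tested had a lower fold change than mir-181b.

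The row mir-181d, the downstream partner on chromosome 19, was at 105, 77.7, 92.0 and 187 CPM in wild-type clones 52, 55, 57 and 67 under control shRNAs. Under ERH shRNAs these clones had 73.7, 51.6, 35.1 and 90.4 CPM. Clones differed so much in their control level that the ranges of control and ERH values overlapped, although every clone moved down. In deletion clones 30, 34, 42 and 43 mir-181d went from 78.5, 66.3, 142 and 98.9 CPM to 39.9, 25.5, 45.6 and 42.7 CPM. Here the ranges did not overlap, and again the share of all rows with such a gap was not counted. The log2 fold change over all clones was -1.09 ± 0.15 (SE, edgeR adjusted p = 7.54e-06), with 8 of 8 clones lower. The calls of mir-181b and mir-181d over all clones held under every alternative run, among them both other scalings and leaving out any clone. The changes were smaller with spike-in scaling, at -0.87 for mir-181b and -0.63 for mir-181d. With total miRNA scaling they were -1.06 and -0.82.

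The row mir-181c, the upstream partner on chromosome 19, was at 260.02, 154, 133 and 399 CPM in wild-type clones 52, 55, 57 and 67 under control and at 191, 92.0, 76.6 and 202 CPM under ERH shRNAs. In deletion clones 30, 34, 42 and 43 it went from 142, 154, 274 and 218 CPM to 121, 75.7, 202 and 147 CPM. The ranges overlapped in both genotypes, while all 8 clones were lower. The log2 fold change was -0.65 ± 0.13 (SE, edgeR adjusted p = 0.000604). This call was lost with spike-in scaling, at -0.19 (edgeR adjusted p = 0.385), and without the clone block, at -0.63 (edgeR adjusted p = 0.151).

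The row mir-181a, the upstream partner at both of its loci, was at 2792, 3336, 4045 and 4099 CPM in wild-type clones 52, 55, 57 and 67 under control and at 3257, 2577, 2643 and 2695 CPM under ERH shRNAs. In deletion clones 30, 34, 42 and 43 it was at 2485, 2461, 2881 and 2576 CPM under control and at 2514, 1768, 2348 and 2658 CPM under ERH shRNAs. It was lower in 5 of 8 clones and higher in clones 30, 43 and 52. The log2 fold change was -0.26 ± 0.11 (SE, edgeR adjusted p = 0.0713), and its sign turned with spike-in scaling, at 0.20, and with total miRNA scaling, at 0.01. It passed the threshold with DESeq2, at -0.32 (DESeq2 adjusted p = 0.0310), and without clone 52, at -0.33 (edgeR adjusted p = 0.0325). These 2 scalings moved the median log2 fold change of all rows from 0.06 to 0.52 and 0.33, so every direction here is relative to the TMM scale.

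**Figure D1:**
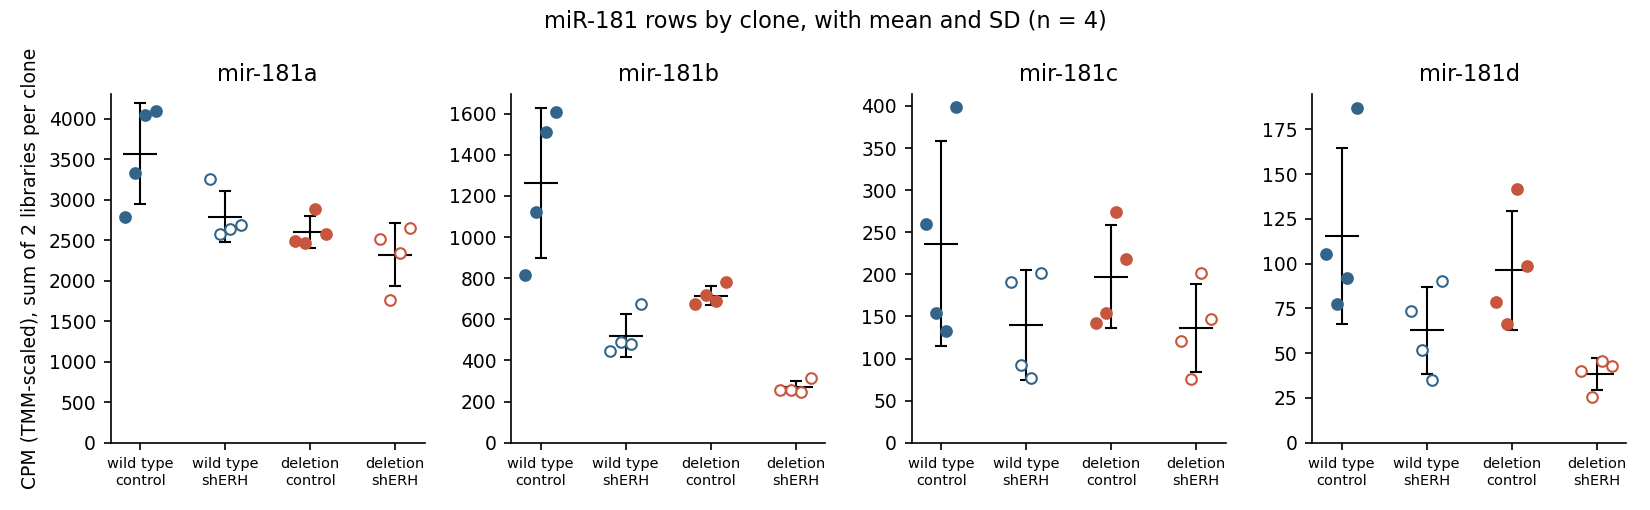
CPM of each row (y axis from 0, a separate scale per panel) by genotype and shRNA arm. Each point is 1 clone, filled for control and open for ERH shRNAs, and bars show the mean and SD of 4 clones. The lowest group of mir-181b and of mir-181d is deletion with ERH shRNAs, at 269 ± 31.96 and 38.4 ± 8.91 CPM (SD, n = 4).

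Partners cut from the same transcript share its amount, so their ratio within a library was compared next. Only mir-181d to mir-181c is a ratio within 1 locus. The rows mir-181a and mir-181b each pool the chromosome 1 and chromosome 9 loci, so a change in the mix of these loci could also move their ratio. This was not tested. It needs no scaling between libraries. For each clone the log2 ratio of the downstream to the upstream row was taken from counts with 0.5 added, and 20 ratio tests in all were adjusted together (exact permutation tests, two-sided). The level of such a ratio also carries how well each sequence is captured in a library, so its change is the quantity of interest.

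The mir-181b to mir-181a ratio fell in every clone when ERH was knocked down. Per 100 counts of mir-181a, wild-type clones 52, 55, 57 and 67 had 29.3, 33.6, 37.3 and 39.2 counts of mir-181b under control and 13.7, 19.0, 18.1 and 25.0 under ERH shRNAs. Deletion clones 30, 34, 42 and 43 had 27.1, 29.1, 24.0 and 30.3 under control and 10.3, 14.4, 10.5 and 11.9 under ERH shRNAs. No ERH value reached the lowest control value of its own genotype. The log2 ratio changed by -1.07 ± 0.25 (SD, n = 8), and all 8 clones showed the fall (exact test over sign flips of the clones, p = 0.00781, which is the lowest it can give, and 0.0781 after adjustment over 20 tests). The adjusted value missed 0.05 in this paired form. At this p it could pass only if at least 4 of the 20 tests passed together, and 2 reached this lowest p. When control and ERH values were permuted as unpaired groups (no replicate block), the same change had an adjusted p of 0.00497 (exact permutation). That form takes the control and ERH values of a clone as independent, although they are paired, and it has more arrangements. It also leaves the tests between the control vectors out of the adjustment, so it does not make up for the paired result.

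The mir-181d to mir-181c ratio moved less and less evenly. Per 100 counts of mir-181c, wild-type clones 52, 55, 57 and 67 had 40.5, 50.6, 69.4 and 46.9 counts of mir-181d under control and 38.7, 56.1, 45.9 and 44.8 under ERH shRNAs. Deletion clones 30, 34, 42 and 43 had 55.3, 43.1, 51.7 and 45.4 under control and 33.0, 33.8, 22.6 and 29.2 under ERH shRNAs. Clone 55 was the 1 clone in which the ratio was higher, and in wild-type clones most of the mean change came from clone 57. Over all clones the log2 ratio changed by -0.44 ± 0.44 (SD, n = 8), with 7 of 8 clones lower (exact test over sign flips, p = 0.0391 and 0.127 after adjustment).

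**Figure D2:**
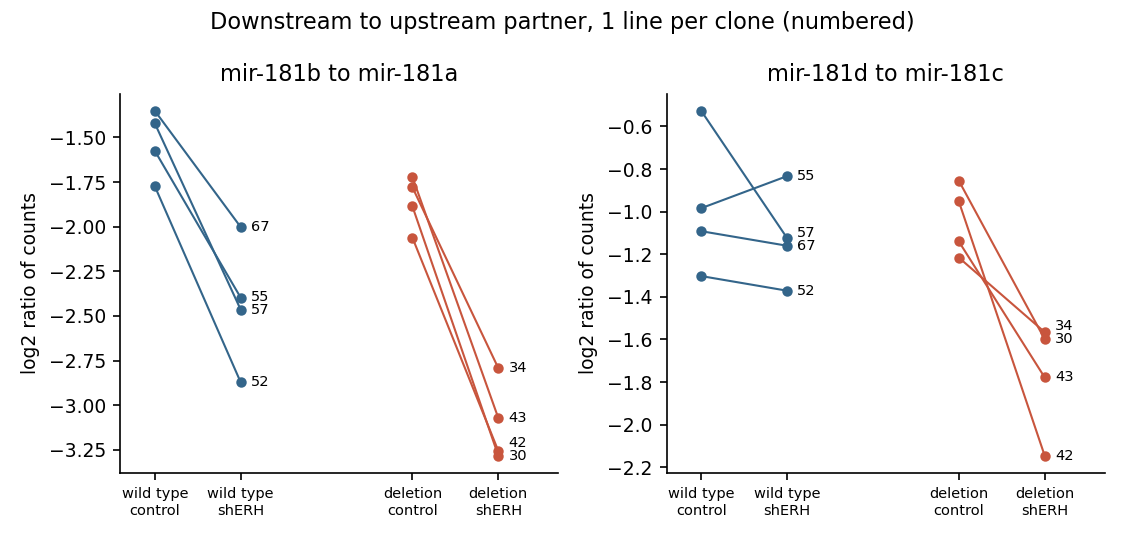
Log2 ratio of counts of the downstream to the upstream row (y axis) by genotype and shRNA arm (x axis). Each line joins the control and ERH value of 1 clone, numbered at its ERH value. All 8 lines fall for mir-181b to mir-181a, and 7 of 8 fall for mir-181d to mir-181c, with clone 55 rising.

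Each ERH shRNA was set against the control shRNA of the same number, to see the change in separate libraries. With shRNA 1 the log2 fold changes were -1.16 ± 0.12 for mir-181b, -0.91 ± 0.18 for mir-181d, -0.53 ± 0.14 for mir-181c and -0.25 ± 0.10 for mir-181a (SE). With shRNA 2 they were -1.41 ± 0.17, -1.17 ± 0.20, -0.72 ± 0.18 and -0.22 ± 0.16 in the same order (SE). Both vectors thus gave the same order of the 4 rows, and with each of them 3 of 4 members were called lower (edgeR, adjusted p under 0.05), against 12.3% of 586 rows for shRNA 1 and 6.87% of 582 for shRNA 2. With spike-in scaling the calls of mir-181d and mir-181c with shRNA 1 were lost, at -0.37 and 0.0011, and that of mir-181c with shRNA 2, at -0.45, and total miRNA scaling ended the mir-181c call with both vectors, at -0.27 and -0.51. The row mir-181a was also called with shRNA 1 without clone 43, at -0.30, and by DESeq2, at -0.31. The mir-181b to mir-181a ratio changed by -0.91 ± 0.26 with shRNA 1 and -1.19 ± 0.40 with shRNA 2 (log2, SD, n = 8), lower in 8 of 8 clones each. The mir-181d to mir-181c ratio changed by -0.38 ± 0.50 and -0.45 ± 0.57 (log2, SD, n = 8), lower in 6 of 8 clones each.

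As background, control shRNA 2 against control shRNA 1 gave no call for any member (0% of 571 rows called by edgeR, with 48 rows at an unadjusted p under 0.05). DESeq2 called 1 row in this comparison. The members' log2 differences lay between -0.01 for mir-181a and 0.24 for mir-181d. The mir-181b to mir-181a ratio nevertheless differed by 0.22 ± 0.24 between the 2 control vectors (log2, SD, n = 8), with 1 of 8 clones lower (exact test over sign flips, p = 0.0547 and 0.127 after adjustment). The size of this shift is about the SD of the paired differences. The test does not show that the 2 control vectors were alike in this ratio.

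Knockdown was then taken within each genotype. In wild-type clones 3 of 4 members were called lower, against 10.4% of 613 rows, with log2 fold changes of -1.20 ± 0.17 for mir-181b (edgeR adjusted p = 5.34e-05), -0.84 ± 0.21 for mir-181d (edgeR adjusted p = 0.00558) and -0.69 ± 0.19 for mir-181c (edgeR adjusted p = 0.00987), each ± SE. The same 3 of 4 were called lower in deletion clones, against 6% of 633 rows, at -1.44 ± 0.10 for mir-181b (edgeR adjusted p = 1.38e-05), -1.33 ± 0.14 for mir-181d (edgeR adjusted p = 0.000205) and -0.59 ± 0.14 for mir-181c (edgeR adjusted p = 0.0277). The row mir-181a was at -0.30 ± 0.17 and -0.20 ± 0.11 (SE) and passed in neither, although it did in wild-type clones without clone 52, at -0.41, and with shRNA 1 alone, at -0.44. In wild-type clones spike-in scaling ended all 3 calls, at -0.59, -0.22 and -0.08 for mir-181b, mir-181d and mir-181c, and the mir-181d and mir-181c calls were also lost with total miRNA scaling, at -0.50 and -0.35, and with shRNA 2 alone, at -0.96 and -0.95. The mir-181d call was lost without clone 57 as well, at -0.68, and the mir-181c call without clone 55, at -0.70. In deletion clones the calls of mir-181b and mir-181d held in all alternatives, while that of mir-181c was lost with spike-in scaling, at -0.30, with total miRNA scaling, at -0.41, with shRNA 1 or shRNA 2 alone, at -0.52 and -0.69, without the clone block, at -0.56, and without clone 42 or 43, at -0.65 and -0.58.

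Whether the 2 genotypes differed in their response was tested directly. The interaction of genotype and knockdown was -0.17 ± 0.19 for mir-181b, -0.42 ± 0.25 for mir-181d, 0.17 ± 0.21 for mir-181a and 0.17 ± 0.22 for mir-181c (log2, SE, deletion minus wild type). None of the 4 passed (edgeR adjusted p between 0.399 and 0.732). Of 667 rows 0% were called by edgeR, 127 had an unadjusted p under 0.05, and DESeq2 called 16 rows. For the mir-181d to mir-181c ratio the knockdown change was -0.15 ± 0.32 in wild-type and -0.73 ± 0.35 in deletion clones (log2, SD, n = 4 each), a difference of -0.59 (exact permutation of genotypes, p = 0.0571 and 0.127 after adjustment). For the mir-181b to mir-181a ratio it was -0.90 ± 0.21 and -1.24 ± 0.17 (log2, SD, n = 4 each), a difference of -0.33 (exact permutation of genotypes, p = 0.0857 and 0.171 after adjustment). The mean change was larger in deletion clones for both ratios. A comparison of 4 with 4 clones cannot go below 0.0286 and would pass after adjustment only if at least 12 of the 20 tests passed together. The adjusted values here and below can therefore hardly pass and say little either way.

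With control shRNAs in both genotypes, deletion clones were set against wild-type clones, which asks what loss of the contact site does while ERH is not knocked down. The row mir-181b was the 1 member called, against 7.09% of 536 rows called lower. It stood at 1264 ± 365 CPM in wild-type and 715 ± 47.6 CPM in deletion clones (SD, n = 4 each), with no overlap between 817, the lowest wild-type clone, and 781, the highest deletion clone. Such a gap in this direction was seen for 8.55% of rows. The log2 fold change was -0.79 ± 0.22 (SE, edgeR adjusted p = 0.0226). The row mir-181a was at -0.43 ± 0.17 (SE, edgeR adjusted p = 0.0802) and passed with shRNA 1 libraries alone, at -0.58 (edgeR adjusted p = 0.0415). Its sign turned with spike-in scaling, at 0.0246. The row mir-181c was at -0.23 ± 0.36 (edgeR adjusted p = 0.665) and mir-181d at -0.23 ± 0.33 (edgeR adjusted p = 0.646). The mir-181b call was lost with spike-in scaling, at -0.31, with total miRNA scaling, at -0.36, with control shRNA 2 alone, at -0.69, over rows with a mean of at least 100 counts, at -0.63, and without clone 30, 34, 42, 57 or 67, at values between -0.78 and -0.61. The directions of mir-181c and mir-181d turned under both other scalings and without clone 67, at 0.16 and 0.13, so none is given for them.

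The partner ratios separated the genotypes less clearly under control shRNAs. The mir-181b to mir-181a log2 ratio was -1.53 ± 0.19 in wild-type and -1.86 ± 0.15 in deletion clones (SD, n = 4 each), a difference of -0.33 (exact permutation of genotypes, p = 0.0571 and 0.127 after adjustment). Clone 52, the lowest wild-type clone, lay below deletion clone 43 and just above clone 34. The mir-181d to mir-181c log2 ratio was -0.98 ± 0.33 and -1.04 ± 0.17 (SD, n = 4 each), a difference of -0.06 (exact permutation of genotypes, p = 0.800 and 0.842 after adjustment) that is within the spread of the clones and turned to 0.09 without clone 57.

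The genotypes were also compared under ERH shRNAs, where none of the 4 members passed the edgeR test. The row mir-181b was at 521 ± 102.7 CPM in wild-type and 269 ± 31.96 CPM in deletion clones (SD, n = 4 each), without overlap, as seen for 1.95% of rows in this direction. Its log2 fold change of -0.97 ± 0.21 (SE) had an unadjusted p of 0.000502 and an adjusted p of 0.0877 (edgeR), so it did not pass, and 0% of 569 rows did, with 87 rows at an unadjusted p under 0.05. With DESeq2, which called 8 rows, mir-181b was at -1.06 (DESeq2 adjusted p = 0.000694). The row mir-181d was at -0.72 ± 0.32 (SE, edgeR adjusted p = 0.320), mir-181a at -0.28 ± 0.18 and mir-181c at -0.05 ± 0.37, whose sign turned without clone 34, 52 or 67, at 0.11, 0.17 and 0.19. The mir-181d to mir-181c log2 ratio was -1.12 ± 0.22 in wild-type and -1.77 ± 0.27 in deletion clones (SD, n = 4 each), a gap without overlap (exact permutation of genotypes, p = 0.0286, which is the lowest it can give, and 0.127 after adjustment). The mir-181b to mir-181a log2 ratio was -2.43 ± 0.36 and -3.10 ± 0.23 (SD, n = 4 each), a difference of -0.67 with overlap of clones 52 and 34 (exact permutation of genotypes, p = 0.0571 and 0.127 after adjustment).

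**Figure D3:**
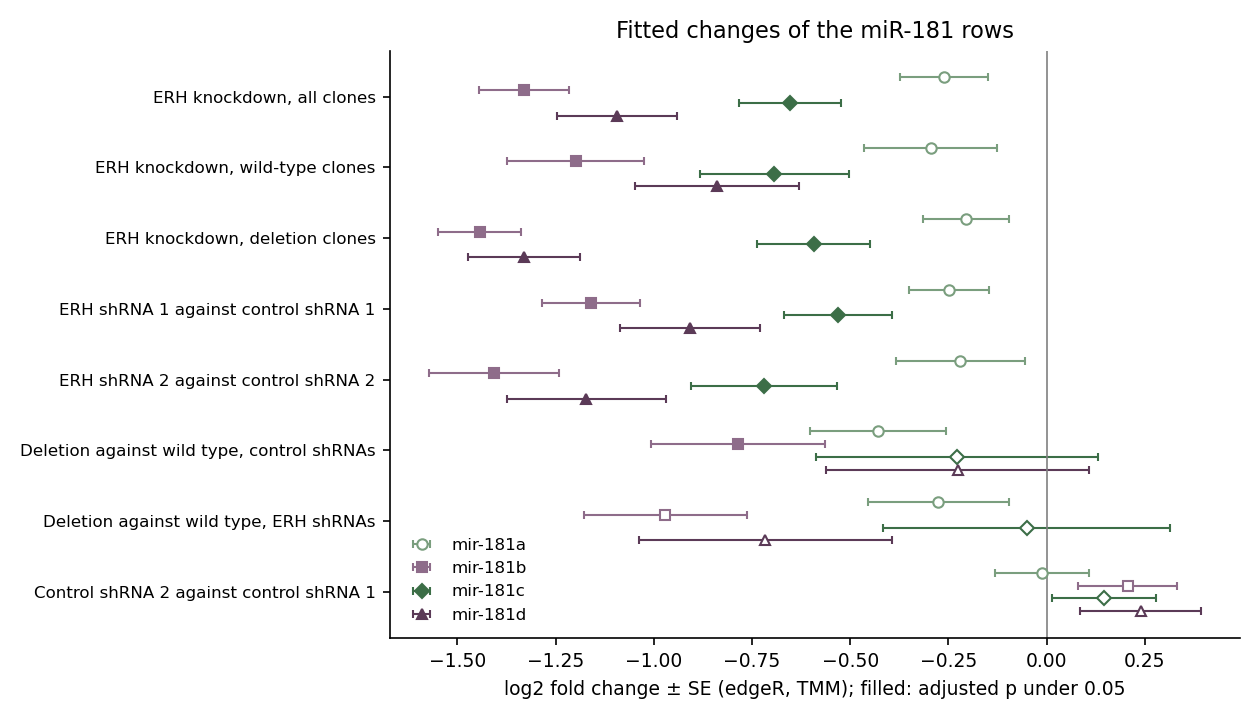
Log2 fold changes of the 4 rows (x axis, ± SE, edgeR with TMM scaling) in 8 comparisons (y axis). Filled symbols have an adjusted p under 0.05. In the 5 knockdown comparisons the order from most to least lowered is mir-181b, mir-181d, mir-181c, mir-181a. These comparisons share libraries and are not independent. In wild-type clones mir-181d and mir-181c lie close together, at -0.84 ± 0.21 and -0.69 ± 0.19 (SE).

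Set against wild-type clones with control shRNAs, the 3 departures can be put side by side as differences in mean log2 CPM, which share that control group and are given without a test. For mir-181b they were -0.77 for the deletion, -1.25 for the knockdown and -2.19 for both, which left 21.9% of the wild-type control level. For mir-181d they were -0.24, -0.89 and -1.54, leaving 34.4%. For the upstream rows they were -0.44, -0.34 and -0.62 for mir-181a, leaving 65.1%, and -0.17, -0.74 and -0.74 for mir-181c, leaving 59.9%. With deletion and knockdown together the downstream rows were lowered most. The percentages left hold on the TMM scale only. With spike-in scaling the knockdown in deletion clones was at -1.15 for mir-181b, -1.04 for mir-181d, -0.30 for mir-181c and 0.0837 for mir-181a. What was left with both was not computed on that scale. For the deletion alone mir-181a, mir-181c and mir-181d turned sign with spike-in scaling, at 0.0246, 0.16 and 0.18, so their order is not read.

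The family's make-up shifted accordingly towards mir-181a. Its share of family counts was 69.1% ± 2.71 in wild-type clones with control shRNAs, 72.1% ± 1.44 with the deletion, 79.4% ± 3.96 with the knockdown and 83.9% ± 1.33 with both (SD, n = 4 each). The share of mir-181b was 24.0% ± 2.51, 19.9% ± 1.82, 14.9% ± 2.93 and 9.87% ± 1.55 in the same order (SD, n = 4 each). The share of mir-181d was 2.22% ± 0.70, 2.63% ± 0.69, 1.76% ± 0.58 and 1.38% ± 0.17 (SD, n = 4 each). That of mir-181c stayed within its spread, at 4.61% ± 2.15, 5.39% ± 1.25, 3.89% ± 1.51 and 4.86% ± 1.56 (SD, n = 4 each). The summed counts of the 4 rows, most of which are mir-181a, changed less than mir-181b did. The family made up 0.403% ± 0.074 of miRNA counts in wild-type clones with control and 0.361% ± 0.059 with ERH shRNAs, and 0.384% ± 0.049 and 0.325% ± 0.037 in deletion clones (SD, n = 4 each). The rows also hold 3p strands, which carry other seeds, so this sum is not a count of the shared seed alone.

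**Figure D4:**
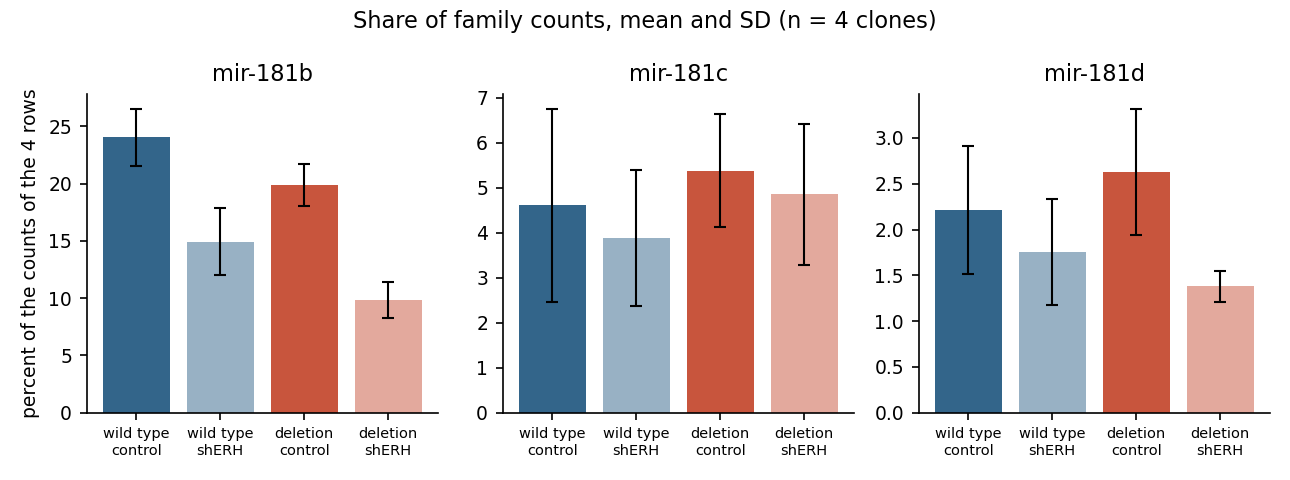
Share of the family's counts (y axis in percent, bars from 0, a separate scale per panel) held by mir-181b, mir-181c and mir-181d, by genotype and shRNA arm. Bars are means and error bars SDs of 4 clones. The mir-181b share is 24.0% in wild-type clones with control shRNAs and 9.87% in deletion clones with ERH shRNAs.

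Rows from different loci were compared to see whether the position in the transcript or the locus went with the change. The ratio of the upstream rows, mir-181a to mir-181c, rose by 0.39 ± 0.20 on the log2 scale under the knockdown (SD, n = 8), with 8 of 8 clones higher (exact test over sign flips, p = 0.00781 and 0.0781 after adjustment). The ratio of the downstream rows, mir-181b to mir-181d, changed by -0.24 ± 0.23 (log2, SD, n = 8), with 7 of 8 clones lower (exact test over sign flips, p = 0.0312 and 0.127 after adjustment). Neither passed after adjustment. The former was at the lowest p its design allows and could pass only together with other tests, as given above. The adjusted values therefore do not show that the loci moved alike.

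Clones also differed in ways that did not follow the genotype labels, most of all at the chromosome 19 locus. Under control shRNAs mir-181c was highest in clones 67, 42, 52 and 43, at 399, 274, 260.02 and 218 CPM, and at or below 154 CPM in the other four. The same 4 clones, 2 wild type and 2 deletion, had the highest mir-181d, at 187, 142, 105 and 98.9 CPM. The mir-181a to mir-181c ratio accordingly ran from 10.3 in clone 67 to 30.5 in clone 57, both wild type. The standard errors of mir-181c and mir-181d between genotypes, at 0.36 and 0.33, were likewise larger than the 0.17 of mir-181a and the 0.22 of mir-181b.

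Likeness over the 32 libraries was described by Pearson's r of log2 CPM among rows with a mean of at least 100 counts, each member being set against 257 others. These libraries share clones, vectors and depth, so r is a description. The row most like mir-181c was its partner mir-181d, with r = 0.82, followed by mir-502 (0.72) and mir-339 (0.64). The row most like mir-181d was mir-181c, followed by mir-181b (0.80) and mir-425 (0.76). The rows most like mir-181b were mir-425 (0.84), mir-15b (0.80) and mir-181d (0.80). The rows most like mir-181a were mir-10b (0.84), mir-92a (0.83) and mir-23a (0.80), while its own partner mir-181b came at rank 11 with r = 0.69. The chromosome 19 partners thus followed each other across libraries more closely than the partners mir-181a and mir-181b did.

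A list of 18 other rows from short clusters gives the setting. Under the knockdown in all clones their log2 fold changes ran from -2.01 for mir-212 to -0.12 for mir-29b. All 18 were tested, and in that comparison 14 were lower and 0 higher (edgeR, adjusted p under 0.05). Of the 667 rows 16.5% were called lower and 20.1% higher. The median log2 fold change was -0.46 in the list against 0.06 over the 667 rows. Under the deletion with control shRNAs 4 of 18 were lower and 0 higher, against 7.09% of the 536 rows called lower. The median was -0.47 in the list against -0.03 over the 536 rows. The list was drawn up with earlier results of these data known.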

How the data were processed

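Per the file headers, the deposited table holds the authors' total read counts per miRNA precursor name and per spike-in RNA, with 1 column per library and 0 columns without a sample. They are raw whole-number counts. The submitters' processing notes name SAMtools, while the aligner, annotation release, build, trimming and use of molecular identifiers are not given in the sources used here. Libraries were QIAseq miRNA libraries, per the labels' protocols. Without molecular identifiers, PCR copies would also be counted.

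The clone was the replicate, and its 2 control and its 2 ERH libraries were each added up (16 sums). Whether clones arose from separate edits or cultures is not stated, so p-values speak for these clones only. Where genotypes are compared within 1 arm, p-values measure the spread of levels between clones. Elsewhere they measure the spread of the change within clones. Counts were tested over all miRNA rows with edgeR 4.0.16 (R 4.3.3; filterByExpr, TMM, glmQLFit, glmQLFTest, Benjamini-Hochberg), with the clone as a block for the knockdown, single shRNAs, the 2 control vectors and the interaction. An SE is the log2 fold change divided by the root of F. The edgeR test was run on simulated counts without clone effects, for the knockdown in all clones and the deletion with control shRNAs. The outcome is not given here. The other comparisons and the ratio tests were not simulated. The labels pair the samples, since each clone received all 4 vectors, and over 314 rows the 2 sums of a clone deviated together from their groups, with r between 0.42 and 0.86. Log2 ratios were tested by exact permutation, over 256 sign flips of 8 clones or 70 arrangements of the genotypes, which cannot go below 0.00781 and 0.0286. Within 1 genotype 16 sign flips cannot go below 0.125, so those changes are given without a test. Sequences came from RefSeq (5 of the 6 hairpins and 4 of 4 5p strands matched; MIR181B2 is the hairpin without an entry), positions from GENCODE 29, and folding from RNAfold 2.7.2.

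The members, the comparison list and the tests were chosen with earlier results of these data known. All 4 members are described, and for each the 3 rows with the highest r over the 32 libraries. Alternatives were DESeq2 1.42.0, spike-in and total miRNA scaling, another filter on low counts (none, or a mean of 100 counts or more), no clone block, single shRNA numbers, a ratio pseudocount of 1, the mean of the log2 ratios of 2 libraries, and leaving out each clone.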

Additional observations from a re-analysis of the deposited data

How the results depend on the processing

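Depth limits mir-181d most, and the rows pool arms and loci. No ratio passed its test in the main run, and the paired and genotype tests could hardly pass. A ratio that kept its side of the threshold therefore says little. Of the members' values under the alternatives 434 kept direction and side of the threshold, 31 turned sign, 35 lost and 8 gained a call. Of the ratios' values 223 kept both, 8 turned sign and 1 gained a call. The cause was not tested, except that spike-in and total miRNA scaling add 1 shift to all rows of a sample, which moved the median log2 change of all rows from 0.06 to 0.52 and 0.33 for the knockdown in all clones and from -0.03 to 0.42 and 0.39 for the deletion with control shRNAs. The split of calls for the knockdown in all clones was 134 higher and 110 lower with TMM, 233 and 22 with spike-ins, 210 and 36 with total miRNA and 129 and 130 with DESeq2.

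With spike-in scaling mir-181a was at 0.20 (all clones), 0.32 (wild type) and 0.0837 (deletion) for the knockdown, 0.29 for shRNA 1, 0.0584 for shRNA 2, 0.0246 for the deletion with control shRNAs, 0.12 between control vectors and -0.24 for the interaction. There mir-181c was at 0.0011 for shRNA 1, 0.16 for the deletion with control shRNAs and -0.23 for the interaction, and mir-181d at 0.18 for the deletion. With total miRNA scaling mir-181a was at 0.0123 (all clones), 0.0435 (wild type), 0.0137 (shRNA 1), 0.0281 (control vectors) and -0.0622 (interaction), mir-181c at 0.17 and 0.14 for the deletion with control and ERH shRNAs and -0.0550 for the interaction, and mir-181d at 0.17 for the deletion with control shRNAs. With shRNA 2 libraries alone mir-181c was at 0.0648 for the deletion with ERH shRNAs and mir-181a at -0.0056 for the interaction. Leaving out 1 clone gave -0.45 to 0.16 for mir-181c and -0.47 to 0.13 for mir-181d under the deletion with control shRNAs, -0.36 to 0.19 for mir-181c with ERH shRNAs, and -0.0664 to 0.0857 for mir-181a between control vectors.

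The number of rows called moved by over 1.5 times as follows. A mean of at least 100 counts gave 148 for the knockdown in all clones, 124 in wild-type clones, 76 for the deletion with control shRNAs, 29 for the interaction, 71 for shRNA 2 and 1 between control vectors. No replicate block gave 37, 94 and 13 for the knockdown in all, wild-type and deletion clones, 52 for shRNA 1 and 29 for shRNA 2. The clone pairing also decided the mir-181c call, which without the block was lost in all of these comparisons, and the mir-181d call in wild-type clones, at -0.80 (edgeR adjusted p = 0.122). shRNA 2 libraries alone gave 117, 20 and 19 for the 3 knockdown comparisons and 35 for the deletion with control shRNAs, and shRNA 1 libraries alone 30 for the interaction. Spike-in scaling gave 102 for the knockdown in deletion clones and 254 for shRNA 1, total miRNA scaling 109 for the former and 29 for the interaction. DESeq2 gave 8 for the deletion with ERH shRNAs, 16 for the interaction and 1 between control vectors, and no filter 1 for the deletion with ERH shRNAs and 19 for the interaction. Leaving out 1 clone gave 159 to 230, 112 to 197 and 30 to 119 for the knockdown in all, wild-type and deletion clones, 83 to 129 and 0 to 1 for the deletion with control and ERH shRNAs, 0 to 35 for the interaction, 100 to 183 for shRNA 1 and 54 to 117 for shRNA 2. The clones whose removal moved a count by over 1.5 times were clone 55 for the knockdown in all clones, 55 and 57 in wild-type clones, 30, 34 and 42 in deletion clones, 34 for the deletion with control shRNAs, 43 for the deletion with ERH shRNAs, 52 and 67 for the interaction, 52 for shRNA 1, and 55 and 57 for shRNA 2.

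Of the log2 ratios, the mir-181b to mir-181a change under the knockdown, -1.07, passed when the pairing of clones was dropped (exact permutation, adjusted p = 0.00497). Paired values are taken as independent there, so it does not make up for the paired result. The mir-181a to mir-181c interaction was 0.10 with shRNA 1 alone and -0.0843 to 0.0821 when 1 clone was left out, and the deletion difference of that ratio with control shRNAs -0.49 to 0.0288. The deletion difference of mir-181d to mir-181c with control shRNAs was 0.0355 with shRNA 2 alone and -0.17 to 0.0859 when 1 clone was left out. The mir-181b to mir-181d difference between control vectors was -0.0805 to 0.0089 when 1 clone was left out.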
